A study of Mus musculus with 8 samples.

Results

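Glycogen is the branched glucose store that most cells build when glucose and insulin are high and take apart when they are low. UGP2 makes the UDP-glucose building block, glycogenin (Gyg) starts the chain, glycogen synthase (Gys1 in most tissues) lengthens it, and the branching enzyme (Gbe1) adds branch points. The phosphorylases, named for liver (Pygl) and brain (Pygb), release glucose 1-phosphate from the chain ends. Protein phosphatase 1 sets this balance by dephosphorylating synthase and phosphorylase, and subunits of the Ppp1r3 family carry it to the glycogen particle: Ppp1r3b (also called GL), Ppp1r3c (also called PTG) and Ppp1r3d. In adipose tissue glycogen is a small store that turns over with feeding and refeeding. Here 9 genes of this system (Ppp1r3b, Ppp1r3c, Ppp1r3d, Gys1, Gyg, Gbe1, Pygl, Pygb and Ugp2) were described, out of 32285 genes in the count tables. They were chosen by symbol, and Ppp1r3b because an earlier reading of the same tables had found it higher in endothelial cells after timed feeding. For Ppp1r3b in endothelial cells the values below are therefore a description and carry no test.

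The data were droplet single-cell RNA counts of the stromal vascular fraction (SVF), the pelleted cells of collagenase-digested fat, from the inguinal depot of C57BL/6 mice (C57BL/6J in the methods of the study). There were 4 libraries from mice with food always at hand (Ad-Lib 1, 3, 5 and 7) and 4 from mice on the TAN schedule (TAN 2, 4, 6 and 8), in which food was given in 2 separate windows of the dark phase. The labels give an age of 8 weeks for both groups, whereas the methods of the study describe older male mice after months of feeding. No treatment or allele other than the feeding schedule is named. The labels do not say whether each library came from its own mouse, although the study treats them as replicate animals; p-values here measure the spread between these libraries.

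The libraries held 25320800 to 37140950 unique molecular identifiers (UMIs, 1 per captured transcript), and 3717 to 5654 cells per library passed the quality limits. The median share of mitochondrial UMIs was 1.79 to 2.54% in Ad-Lib and 2.80 to 4.24% in TAN libraries, without overlap, and its part in the results was not tested. Of 44172 distinct barcodes, 252 occurred in more than 1 library. Cells were assigned by marker: Pdgfra for stromal cells (525 to 1681 per library), Pecam1 for endothelial cells (793 to 1348), C1qa for macrophages (303 to 863), and a share of Adipoq and Car3 UMIs of at least 0.5% for adipocyte-like droplets (124 to 370). B, T, mural and Schwann classes were taken from the rest for comparison. Markers not used for the gates were highest in their own class for every list checked. Among them were Cdh5 in the Pecam1 gate (1173 ± 103 CPM, SD, n = 8) and Cidec in the Adipoq/Car3-rich droplets (860 ± 141 CPM). CPM is the count scaled to a common total of UMIs of that class and library, 1e6. The Schwann class also held much stromal RNA. Dcn was 9435 CPM there against 13265 in the Pdgfra gate, Col1a1 1364 against 2289, Col3a1 2855 against 6891 and Lum 341 against 983.

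The Adipoq/Car3-rich droplets were not clean adipocytes. Mature adipocytes normally float and are lost from the SVF pellet, and the median droplet of this class held only 1061 to 1340 UMIs, depending on the library, against 3760.5 to 4481 in the Pecam1 gate. A Pecam1 UMI was present in 500 of the 2046 droplets (24.4%). The summed level of 4 endothelial genes (Cdh5, Kdr, Tie1 and Egfl7) was 33.8 to 56.8% of that in the Pecam1 gate of the same library. In the reverse direction, the summed level of 3 adipocyte genes (Plin1, Cidec and Retn) in the Pecam1 gate was 4.51 to 6.57% of that in the Adipoq/Car3-rich droplets in Ad-Lib and 3.61 to 9.04% in TAN libraries. In the Pdgfra and C1qa gates the same share averaged 0.25% and 0.79% in Ad-Lib and 0.30% and 1.11% in TAN libraries. For Ppp1r3b, Ppp1r3c, Ppp1r3d, Gys1 and Pygl in the Pecam1 gate, and for other genes named there with a difference, the level that adipocyte RNA would give is therefore printed too (that share times the level in the Adipoq/Car3-rich droplets of the same library).

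In GRCm38 all 9 members are protein-coding genes, matched by gene ID in the GENCODE M21 annotation. Ppp1r3b (ENSMUSG00000046794) lies on the plus strand of chromosome 8, from 35375739 to 35388139, and the non-coding gene Gm45469 overlaps its start on the opposite strand. Ppp1r3c (chromosome 19, 36731731 to 36736653, minus) and Ppp1r3d (chromosome 2, 178411206 to 178414472, minus) are the other subunit genes. Gys1 is on chromosome 7 (45434844 to 45456619, plus), where Ruvbl2 overlaps it on the opposite strand. Gyg is on chromosome 3 (20122084 to 20155317, minus), Gbe1 on chromosome 16 (70313949 to 70569716, plus) and Ugp2 on chromosome 11 (21321138 to 21371201, minus). The phosphorylase genes are Pygl on chromosome 12 (70190811 to 70231488, minus) and Pygb on chromosome 2 (150786735 to 150831758, plus).

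To determine where the glycogen genes were expressed, their CPM was compared across the 8 cell classes. Ppp1r3b was highest in the Adipoq/Car3-rich droplets (45.6 CPM averaged over 8 libraries), followed by mural cells (11.6 ± 6.11 CPM, SD, n = 8), the Pecam1 gate (5.12 ± 3.75) and the C1qa gate (4.95 ± 1.75). Schwann cells (3.88 ± 4.60), T cells (3.86 ± 1.27), the Pdgfra gate (2.11 ± 0.38) and B cells (0.67 ± 0.79) came last. The ranges of all neighbours in this order overlapped. The order depended on the feeding group: the Pecam1 gate ranked 7 of 8 in Ad-Lib libraries (1.79 CPM, below the Pdgfra gate at 1.91) and 3 of 8 in TAN libraries (8.46 CPM), while the Adipoq/Car3-rich droplets and mural cells came before the rest in both. Ppp1r3c and Ppp1r3d had their highest mean over 8 libraries in mural cells, at 18.7 ± 7.34 and 32.4 ± 18.3 CPM, and both overlapped the Adipoq/Car3-rich droplets (13.6 ± 6.09 and 10.4 ± 4.92 CPM), which came next. For Ppp1r3c mural cells were above the droplets in Ad-Lib (19.7 against 8.85 CPM) but not in TAN libraries (17.7 against 18.3 CPM). The immune classes held almost no Ppp1r3c: 5 UMIs in the whole C1qa gate, 4 in T cells and none in B cells.

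The enzymes of synthesis had different class patterns. Gys1 was highest in the Adipoq/Car3-rich droplets (35.6 ± 12.6 CPM, SD, n = 8), where the lowest library (22.5 CPM) was above the highest mural library (17.7 CPM). Gbe1 was also separate there, at 51.6 ± 15.3 CPM, from the T cells that came next (15.2 ± 6.32 CPM). Gyg was highest in mural cells (mean 43.5 CPM, 34.1 to 53.3 by library) and lowest in the Pdgfra gate (11.3 ± 1.43 CPM). Ugp2, which also serves routes other than glycogen, was high in the Pdgfra gate (127 ± 8.85 CPM), the Adipoq/Car3-rich droplets (112 ± 32.3) and Schwann cells (111 ± 33.1), whose ranges overlapped. The part of stromal RNA in the Schwann level was not tested.

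The liver-type phosphorylase gene Pygl had 87.3 ± 27.8 CPM in the Adipoq/Car3-rich droplets, 63.3 ± 6.48 in the Pdgfra gate and 56.7 ± 21.9 in Schwann cells, against 8.47 ± 2.79 in the Pecam1 gate, 6.06 ± 1.53 in the C1qa gate and 0.48 ± 0.66 in B cells. The Pdgfra gate was above the Pecam1 gate in 8 of 8 libraries. How much of the Schwann level of Pygl came from the stromal RNA in that class was not tested. Pygb was more even, from 72.5 ± 27.6 CPM in the Adipoq/Car3-rich droplets to 11.8 ± 3.27 in B cells, with 24.6 to 37.1 CPM in the 6 classes between. A level can differ between classes through the depth of the droplets as well, and levels of different genes were not compared.

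**Figure D1:**
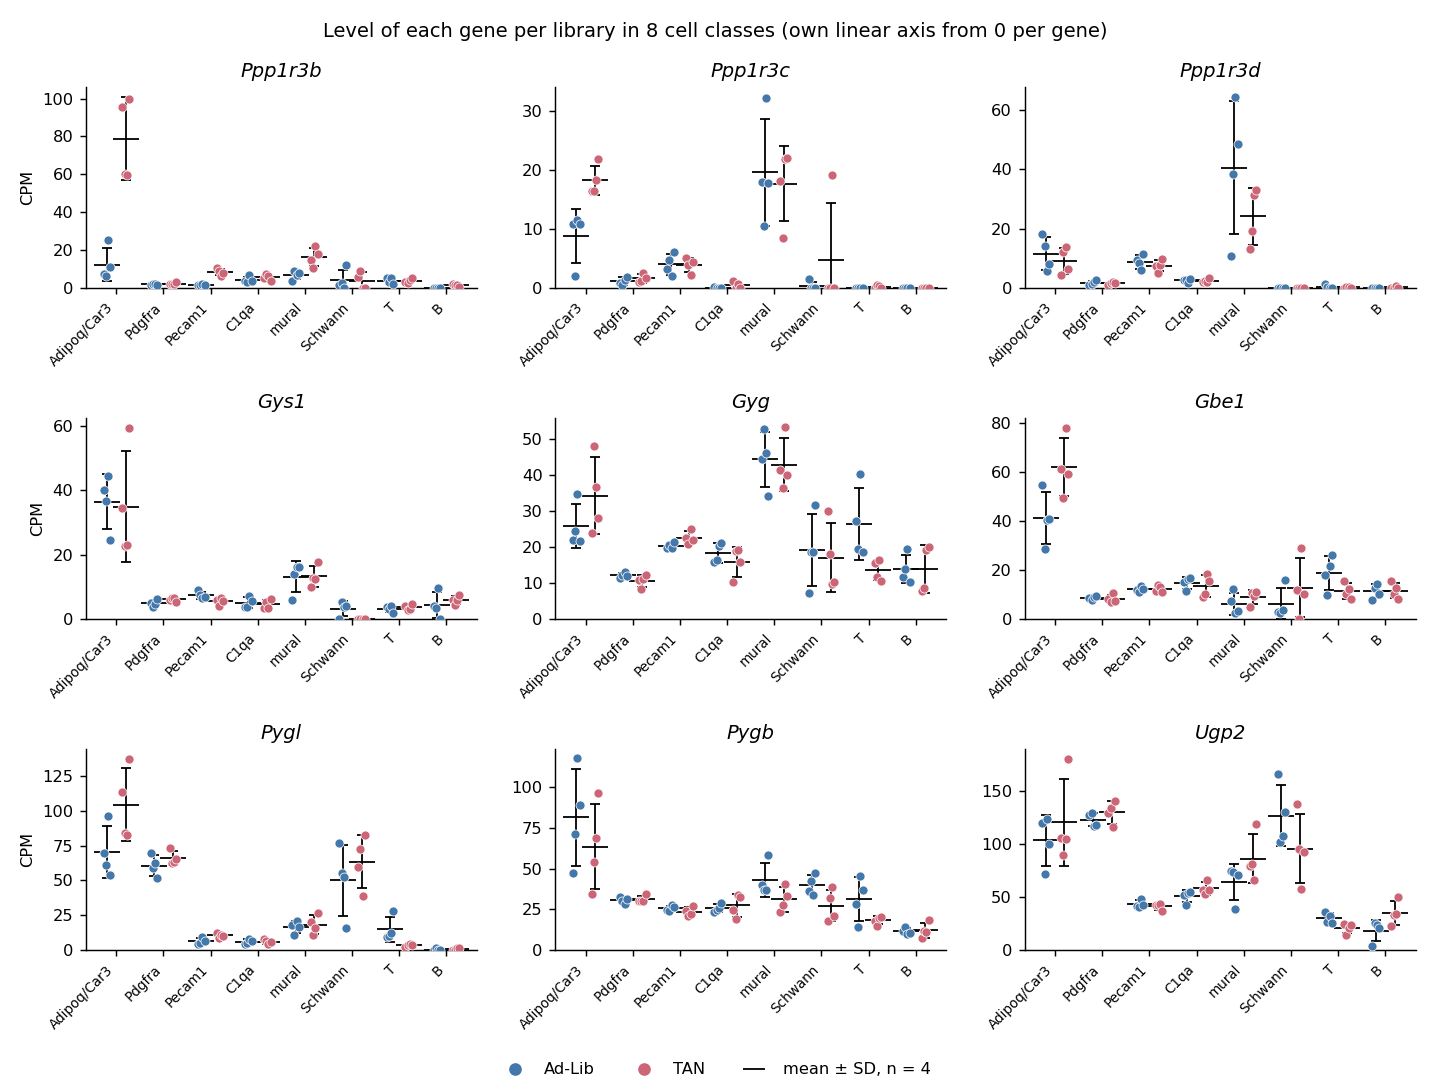
Level of each of the 9 genes (CPM, linear axis from 0, its own for each gene) in 8 cell classes; points are libraries, bars the mean ± SD of 4 libraries per feeding group. Ppp1r3b stands out by the gap between feeding groups in the Adipoq/Car3-rich droplets, Ppp1r3d by mural cells, and Pygl by its low level in the Pecam1 and C1qa gates (8.47 and 6.06 CPM). Ppp1r3c is highest in mural cells in Ad-Lib libraries only.

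To determine which glycogen genes responded to TAN feeding, UMIs were summed per library within each gate and fitted with edgeR's quasi-likelihood test over all genes of the gate. The threshold for a call was an adjusted p (Benjamini-Hochberg) below 0.05 together with a difference of 1.5-fold or more. Of the 36 pairs of a member and a lineage, 32 passed the filter on low counts, and Ppp1r3c and Ppp1r3d failed it in the C1qa gate and in the Adipoq/Car3-rich droplets. Apart from Ppp1r3b, no member was called in any lineage. Over all tested genes the shares called were 0.748% in the Pdgfra gate, 1.34% in the Pecam1 gate, 0.434% in the C1qa gate and 3.26% in the Adipoq/Car3-rich droplets. Ppp1r3b passed the threshold in the last of these and in the Pecam1 gate, but it had been chosen for this contrast in these 8 libraries and passed the low-count filter in both through its TAN counts, so its values there are given as a description. For the others, edgeR gave an unadjusted p under 0.05 for 0 of 8 tested members in the Pdgfra gate (14.2% of all tested genes), 1 of 8 in the Pecam1 gate (15.8%), 0 of 6 in the C1qa gate (13.5%) and 2 of 6 in the Adipoq/Car3-rich droplets (16.0%). DESeq2 called 0 of them in each. Their CPM did not overlap between the feeding groups for 0 of 8 tested members in the Pdgfra gate (6.88% of all tested genes), 1 of 8 in the Pecam1 gate (9.08%), 0 of 6 in the C1qa gate (5.63%) and 0 of 6 in the Adipoq/Car3-rich droplets (9.19%).

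Ppp1r3b was higher in TAN libraries in the Adipoq/Car3-rich droplets. Its level was 7.30, 6.13, 25.1 and 10.8 CPM in Ad-Lib 1, 3, 5 and 7, from 2, 3, 13 and 4 UMIs. In TAN 2, 4, 6 and 8 it was 95.7, 60.0, 59.6 and 99.8 CPM, from 64, 40, 13 and 32 UMIs. Every TAN library was above every Ad-Lib library, and Ad-Lib 5 was the highest of its group. The means were 12.3 ± 8.73 and 78.8 ± 22.0 CPM (SD, n = 4 each), and the fitted log2 change was 2.58 ± 0.35 (SE).

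The difference was also measured in the droplets with the fewest gate markers of other lineages. In the 735 Ad-Lib and 764 TAN droplets of this class with no Pdgfra, Pecam1, B or T cell UMI and fewer than 2 C1qa UMIs, Ppp1r3b was 21.1 ± 13.8 and 112 ± 38.3 CPM (SD, n = 4 each), again without overlap. Ppp1r3b UMIs there numbered 21 and 105. The 4 endothelial genes were still at 11.1 to 22.6% of their Pecam1-gate level in those droplets. The share of Adipoq/Car3-rich droplets with at least 1 Ppp1r3b UMI was 1.59 ± 0.88% in Ad-Lib and 10.8 ± 3.92% in TAN libraries. After each droplet was thinned to 2000 UMIs, which left out 807 Ad-Lib and 795 TAN droplets and kept 199 and 245, the shares were 2.30 ± 2.22% and 8.50 ± 4.94%. Thinned to 1000 UMIs, with 598 and 667 droplets kept, they were 1.19 ± 1.21% and 7.71 ± 2.52%. Shares of the other members were tested in 32 pairs with a lineage by two-sided exact permutation (smallest possible p = 0.0286). At 2000 UMIs 0 of them were below 0.05. At 1000 UMIs 1 was, Ppp1r3c in the Adipoq/Car3-rich droplets (1.01 ± 0.58% and 2.60 ± 1.03%), with an exact p = 0.0286 and an adjusted p = 0.40 over 35 shares. Unthinned, 4 were (Gyg and Gbe1 in the Pdgfra gate, Gys1 in the Pecam1 gate and Ppp1r3c in these droplets), with a lowest adjusted exact p = 0.20.

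B cells, the class with the lowest mean of the gene, gave the background for a share. Whether they lack the gene was not tested. No Ppp1r3b UMI was found in 537 Ad-Lib B cells, which by a limit of 3 cells could be a share of up to 0.559% (exact 95% upper bound 0.685%), and 6 of 1224 TAN B cells held 1 (0.490%, exact 95% upper bound 1.06%). Of the Ad-Lib B cells 450 came from Ad-Lib 3, and 21, 48 and 18 from Ad-Lib 1, 5 and 7. Bounds and intervals here pool the cells of a group, so they cover counting error and not the spread between libraries. The median B cell held 3485 UMIs in Ad-Lib and 3358 in TAN, against 1108 and 1209.5 in the Adipoq/Car3-rich droplets. Over all droplets of the class the share was 1.69% in Ad-Lib (17 of 1006, interval 0.987 to 2.69%) and 11.4% in TAN (119 of 1040, interval 9.57 to 13.5%), both above the B cell shares.

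On the log2(CPM + 1) scale, the difference of Ppp1r3b between the feeding groups was 2.74 in the Adipoq/Car3-rich droplets, 0.18 in the Pdgfra gate and 0.36 in the C1qa gate. The value in the droplets exceeded the others by 2.56 and 2.38, and by 2.46 and 2.25 without TAN 2. These are descriptions, since the gene was chosen for this contrast in these libraries. In the Pecam1 gate the change on this scale was 1.74.

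In stromal cells Ppp1r3b was low in both groups. Levels were 1.74 to 2.11 CPM (Ad-Lib) and 1.84 to 2.91 CPM (TAN), from 96 and 67 UMIs in all, with overlapping groups. The fitted log2 change in the Pdgfra gate was 0.28 ± 0.22 (SE, edgeR adjusted p = 0.652). In macrophages it was 3.59, 3.06, 6.65 and 3.58 CPM in the Ad-Lib libraries and 5.25, 7.60, 6.37 and 3.49 CPM in the TAN libraries, and the log2 change was 0.44 ± 0.32 (adjusted p = 0.589). The groups overlapped there through Ad-Lib 5 and TAN 8, and without Ad-Lib 5 the log2 change was 0.69, against 0.22 without TAN 4. Among the classes given as levels only, Ppp1r3b in mural cells was 3.60 to 8.76 CPM (Ad-Lib) and 10.7 to 21.9 CPM (TAN). The mural groups did not overlap, but they rested on 16 and 29 UMIs, and the adipocyte RNA in that class would give 0.44 and 2.73 CPM on average. Of all genes with at least 10 UMIs in mural cells, 5.45% did not overlap, as did 1 of 9 members. The 4 endothelial genes in mural cells were at 5.77 to 8.80% of their Pecam1-gate level in Ad-Lib and 9.77 to 12.8% in TAN libraries, and the part of that RNA was not tested.

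**Figure D2:**
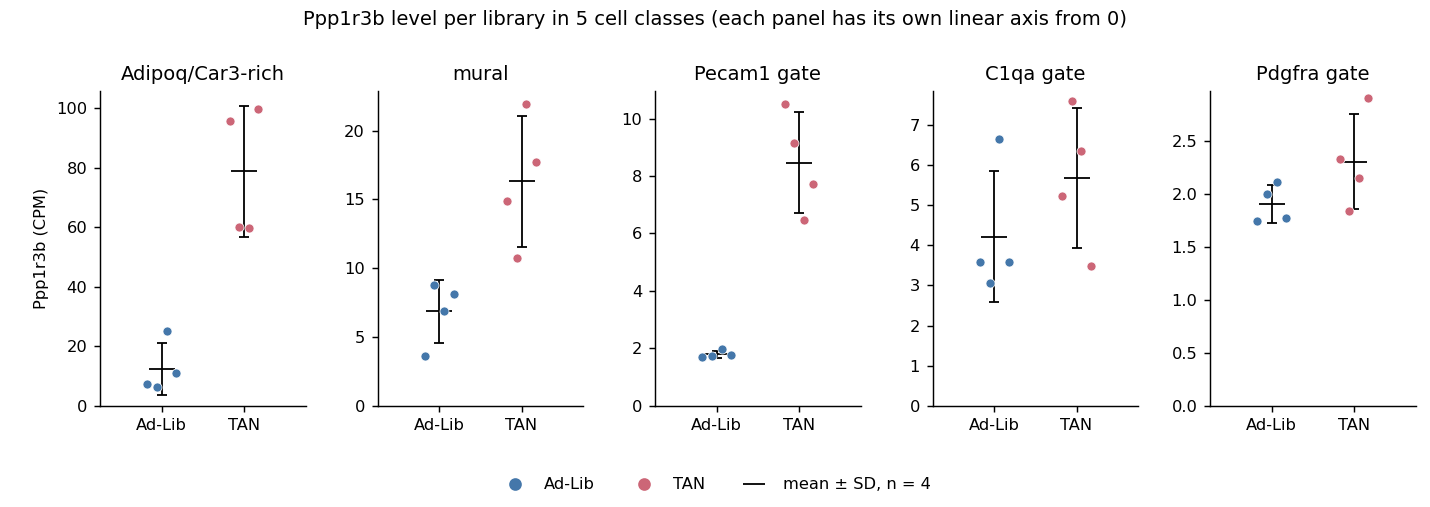
Ppp1r3b level (CPM, linear axis from 0, its own for each panel) per library in 5 cell classes; points are libraries and bars the mean ± SD of 4 libraries. The groups are apart in the Adipoq/Car3-rich droplets (12.3 against 78.8 CPM), mural cells and the Pecam1 gate, and overlap in the C1qa and Pdgfra gates.

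Ppp1r3b had been chosen by its contrast in the Pecam1 gate. Its level there was 1.69, 1.73, 1.97 and 1.77 CPM in Ad-Lib 1, 3, 5 and 7, from 10, 8, 9 and 7 UMIs. In TAN 2, 4, 6 and 8 it was 10.5, 9.15, 6.45 and 7.71 CPM, from 74, 44, 23 and 30 UMIs. The Ad-Lib libraries were nearly alike and all TAN libraries were higher, with a ratio of the means of 4.73 and a fitted log2 change of 2.27 ± 0.25 (SE). The share of endothelial cells with a Ppp1r3b UMI was 0.85 ± 0.14% and 3.58 ± 1.08% (SD, n = 4 each), and 0.27 ± 0.11% and 1.58 ± 0.34% after thinning to 2000 UMIs, which left out 576 Ad-Lib and 661 TAN cells. Thinned B cells gave 0% in Ad-Lib and 0.20 ± 0.07% in TAN libraries.

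The share of adipocyte RNA in this gate overlapped between the groups (5.70 and 6.49% on average). Its Ppp1r3b content was not measured. If the adipocyte RNA in the Pecam1 gate carried Ppp1r3b at its level in the Adipoq/Car3-rich droplets of the same library, it would give 0.66 ± 0.42 CPM (Ad-Lib) and 4.98 ± 2.14 CPM (TAN). The measured means were 1.79 ± 0.12 and 8.46 ± 1.76 CPM, which leaves 0.68 to 1.33 CPM (Ad-Lib) and 2.70 to 4.11 CPM (TAN). The remainders (means 1.12 ± 0.30 and 3.48 ± 0.60 CPM) did not overlap, and their means lay closer together than the measured ones. Since the Adipoq/Car3-rich droplets held endothelial RNA themselves, this estimate is approximate.

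The excess of Ppp1r3b in TAN libraries was larger in endothelial cells that held adipocyte UMIs. In cells with at least 1 Adipoq or Car3 UMI (2447 Ad-Lib and 2761 TAN cells), the level was 1.59 ± 0.63 and 10.1 ± 1.83 CPM (SD, n = 4 each), from 21 and 148 UMIs. In cells with neither (1331 and 1245 cells), it was 2.11, 0, 4.20 and 2.46 CPM in Ad-Lib 1, 3, 5 and 7 and 3.19, 7.28, 3.20 and 4.11 CPM in TAN 2, 4, 6 and 8, from 13 and 23 UMIs (means 2.19 ± 1.72 and 4.45 ± 1.94 CPM). In Ad-Lib libraries the mean was thus not higher in the cells with adipocyte UMIs. The groups overlapped in the cells without Adipoq or Car3 UMIs, the ratio of the means was 2.03, and the gene no longer passed the filter on low counts. Adipocyte UMIs here means those of Adipoq and Car3 only, and other adipocyte transcripts were not excluded. A fit without that filter gave a log2 change of 1.00 ± 0.63 (SE) in those cells. Cells without adipocyte UMIs were also shallower, with a median of 2805.5 to 3670 UMIs by library against 4088 to 4729 in the others, and a part of depth in this difference was not tested.

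Within the gate, capillary-type cells (at least 3 Gpihbp1 or Rgcc UMIs and no arterial, venous or lymphatic marker) had 0.62, 1.17, 2.35 and 0.52 CPM of Ppp1r3b in Ad-Lib 1, 3, 5 and 7 and 13.5, 9.82, 10.5 and 9.27 CPM in TAN 2, 4, 6 and 8. In arterial-type cells (a Gja5, Hey1, Bmx or Sema3g UMI) the ranges were 0.49 to 2.86 CPM and 2.74 to 6.68 CPM, which overlapped. Ppp1r3b was higher in the capillary than in the arterial type in 4 of 4 TAN and 2 of 4 Ad-Lib libraries. The level that adipocyte RNA would give also differed between these types, at 5.98 CPM in TAN capillary-type and 4.17 CPM in TAN arterial-type cells on average. The types were only partly distinct: Gja4, an arterial gene, was 96.6 against 15.5 CPM, while the capillary gene Cd36 was 3513 CPM in the arterial and 4285 CPM in the capillary type. Venous-type cells were few (9 to 25 per library) and held 5 Ad-Lib and 7 TAN UMIs of the gene.

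**Figure D3:**
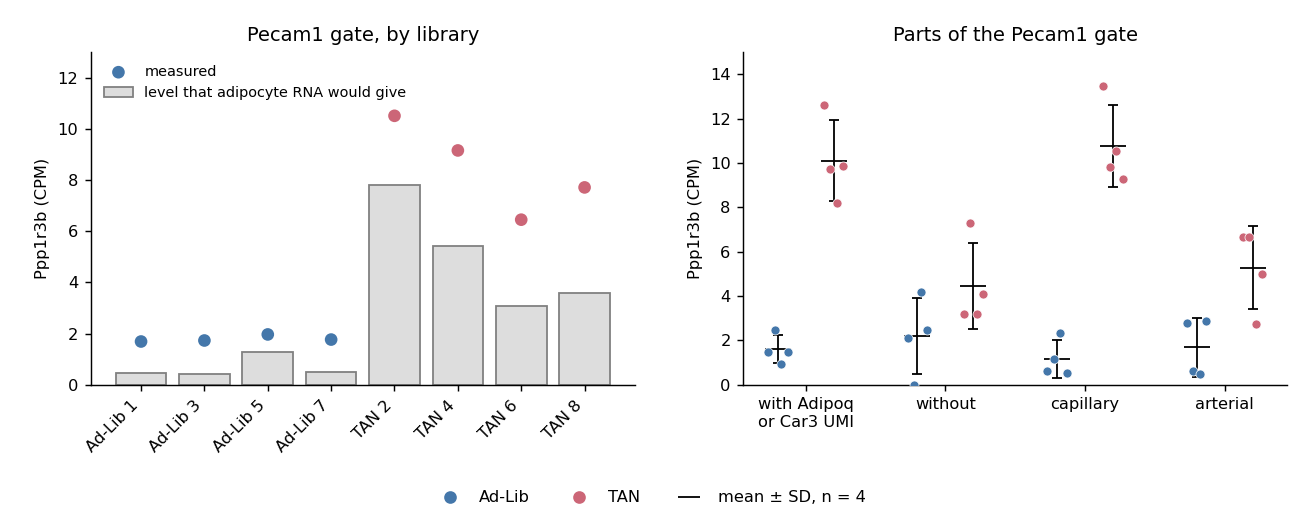
Ppp1r3b (CPM, linear axis) in the Pecam1 gate. Left, the measured level in each library (points) beside the level that adipocyte RNA in the gate would give (grey bars); right, the level in cells with and without an Adipoq or Car3 UMI and in capillary-type and arterial-type cells, with the mean ± SD of 4 libraries. Measured levels exceed the grey bars in all 8 libraries, and the groups overlap in the cells without adipocyte UMIs.

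The other targeting subunits gave no called change. In the Pecam1 gate Ppp1r3c was 1.97 to 6.06 CPM (Ad-Lib) and 2.24 to 5.11 CPM (TAN) (log2 change 0.06 ± 0.35, SE, edgeR adjusted p = 0.965), and Ppp1r3d was 8.75 ± 2.26 and 7.59 ± 1.87 CPM (SD, n = 4 each; log2 change -0.20, adjusted p = 0.744). The adipocyte RNA there would give 0.48 and 1.14 CPM of Ppp1r3c and 0.70 and 0.60 CPM of Ppp1r3d in the 2 groups. In the Pdgfra gate both were under 3 CPM in every library, with adjusted p of 0.757 and 0.840. In the Adipoq/Car3-rich droplets Ppp1r3c was too sparse to be tested. It was 10.95, 2.04, 11.6 and 10.8 CPM in Ad-Lib 1, 3, 5 and 7, from 3, 1, 6 and 4 UMIs, and 16.5, 16.5, 18.3 and 21.8 CPM in TAN 2, 4, 6 and 8, from 11, 11, 4 and 7 UMIs. The groups did not overlap, and a fit without the filter put the log2 change at 1.08 ± 0.50 (edgeR adjusted p = 0.417). Ppp1r3d overlapped there, at 5.79 to 18.3 and 4.49 to 13.8 CPM.

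Among the synthesis genes, Gys1 in the Pecam1 gate was 6.56 to 8.96 CPM (Ad-Lib) and 3.95 to 6.45 CPM (TAN). All TAN libraries were below all Ad-Lib libraries, but the change did not pass the test (log2 change -0.44 ± 0.21, SE, edgeR adjusted p = 0.339). Adipocyte RNA would give 2.11 ± 0.69 and 2.04 ± 0.67 CPM of Gys1 in this gate. In the Adipoq/Car3-rich droplets Gys1 was 36.4 ± 8.62 and 34.8 ± 17.2 CPM (SD, n = 4 each), with the highest library in TAN (59.3 CPM) and the lowest there too (22.5 CPM). Gbe1 in these droplets was 54.8, 28.6, 40.5 and 40.6 CPM in Ad-Lib 1, 3, 5 and 7 and 61.3, 49.5, 77.9 and 59.3 CPM in TAN 2, 4, 6 and 8 (log2 change 0.60 ± 0.24, adjusted p = 0.220). The overlap came from Ad-Lib 1 and TAN 4 alone. Gyg and Ugp2 had no called change. Their log2 changes over the 4 lineages ran from -0.21 to 0.40 and from -0.05 to 0.19, with the lowest adjusted p at 0.433 for Gyg and 0.371 for Ugp2.

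Among the breakdown genes, Pygl came nearest to a call. Its level in the Pecam1 gate was 4.57, 5.41, 9.40 and 6.31 CPM in Ad-Lib 1, 3, 5 and 7 and 12.4, 8.53, 10.9 and 10.3 CPM in TAN 2, 4, 6 and 8. Ad-Lib 5 alone overlapped the TAN range. The log2 change was 0.76 ± 0.22 (SE, edgeR adjusted p = 0.103), and without Ad-Lib 5 it was 0.99 (adjusted p = 0.0311). The adipocyte RNA in the gate would give 3.99 ± 1.10 CPM of Pygl (Ad-Lib) and 6.52 ± 2.33 CPM in TAN libraries, and in cells without Adipoq or Car3 UMIs the level was 5.38 ± 1.69 and 5.77 ± 2.74 CPM (SD, n = 4 each). In the Adipoq/Car3-rich droplets Pygl was 70.3 ± 18.5 and 104 ± 26.2 CPM (log2 change 0.56 ± 0.21, adjusted p = 0.178), with overlapping groups. Pygl in the Pdgfra gate, at 60.6 ± 7.36 and 66.0 ± 4.94 CPM, had an adjusted p = 0.764. Pygb had a log2 change of -0.52 ± 0.27 in the Adipoq/Car3-rich droplets (adjusted p = 0.354) and of -0.10, -0.01 and 0.09 in the Pecam1, Pdgfra and C1qa gates.

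In T cells, given as levels without a test, Pygl was lower in TAN libraries. Its level was 9.05, 10.2, 12.1 and 27.8 CPM in Ad-Lib 1, 3, 5 and 7, from 7, 24, 9 and 15 UMIs, and 2.47, 3.43, 4.14 and 3.50 CPM in TAN 2, 4, 6 and 8, from 3, 14, 28 and 7 UMIs. The groups did not overlap, nor did those of Gyg (26.4 ± 10.0 and 13.6 ± 2.88 CPM, SD, n = 4 each) and Ugp2 (30.3 ± 4.84 and 21.1 ± 4.68 CPM), so that 3 of the 7 members with at least 10 UMIs did not overlap, against 10.5% of all such genes in T cells. T cells numbered 703 in Ad-Lib and 2420 in TAN libraries, and the makeup of the class was not tested.

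**Figure D4:**
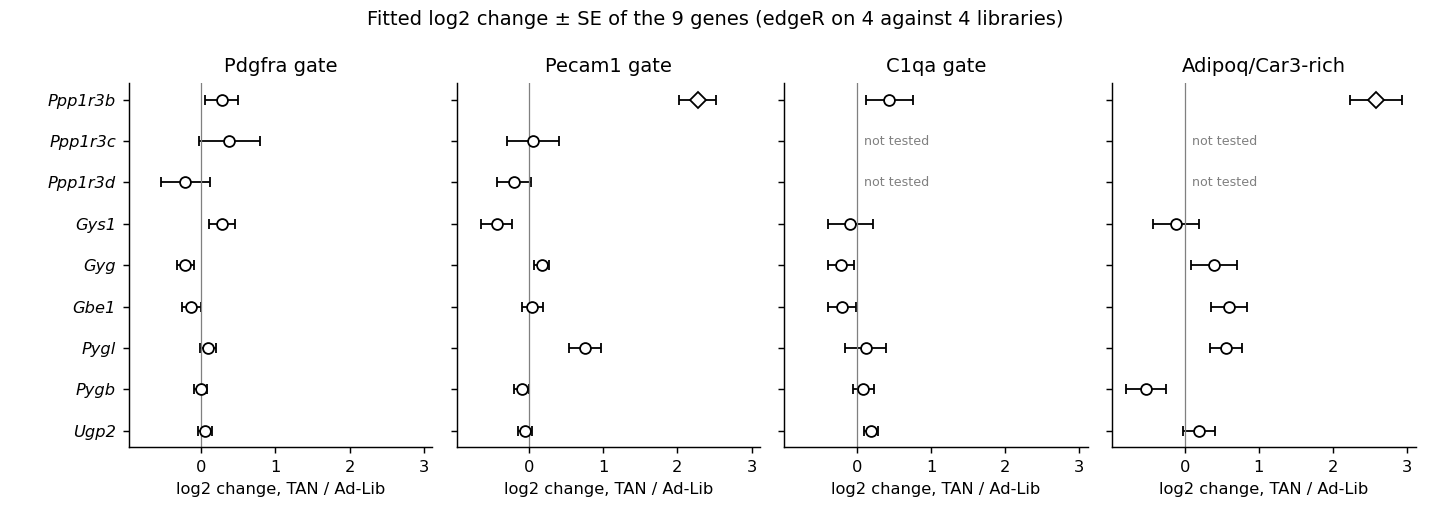
Fitted log2 change (TAN over Ad-Lib) ± SE of the 9 genes in 4 lineages, from edgeR on 4 against 4 libraries; open circles did not pass the threshold for a call, and the diamonds are Ppp1r3b in the Pecam1 gate and the Adipoq/Car3-rich droplets, given as a description with no test. Apart from Ppp1r3b at 2.58 and 2.27, no change exceeds 0.76 in size.

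Across the members without Ppp1r3b, the median fitted log2 change was 0.02 in the Pdgfra gate and -0.0028 in the Pecam1 gate (8 tested in each), 0.0025 in the C1qa gate and 0.30 in the Adipoq/Car3-rich droplets (6 tested in each). The median over all tested genes was within 0.01 of 0 in each lineage. Of 24 other genes of glycogen metabolism (other Ppp1r3 subunits, synthase and phosphorylase isoforms, debranching, phosphorylase kinase, protein phosphatase 1 catalytic subunits, glycogen synthase kinase 3 and phosphoglucomutases), 19, 17, 15 and 7 could be tested in the Pdgfra, Pecam1 and C1qa gates and the Adipoq/Car3-rich droplets. Of these edgeR called 0 and DESeq2 called 0 in each, with 3, 4, 1 and 1 at an unadjusted edgeR p under 0.05 (against the shares of 14.2%, 15.8%, 13.5% and 16.0% of all tested genes). The lowest adjusted p was 0.0813, for Pgm1, a phosphoglucomutase (log2 change 0.36), and Phka2, a regulatory subunit of phosphorylase kinase (-0.54), both in the Pdgfra gate. Without the filter on low counts, the muscle phosphorylase Pygm was called lower in the Adipoq/Car3-rich droplets (log2 change -2.34 ± 0.68, SE, edgeR adjusted p = 0.0298), on 30 UMIs in all, with 15.1 ± 8.51 CPM (Ad-Lib) and 2.64 ± 2.27 CPM (TAN).

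Ppp1r3b also belongs to the 20 genes by which the study scored metabolic elasticity, a list that holds several genes of fatty acid synthesis. Of the other 19, 16 were tested in the Pecam1 gate and 8 were called, all higher in TAN: Acly, Angptl8, Depp1, Dgat2, Elovl6, Fasn, Me1 and Thrsp. With no exclusion of cells holding other lineages' markers, 1 of the 16 was called (Me1; 0.0471% of all tested genes were called higher in that fit). With the exclusion, 0.625% of all tested genes were called higher. Angptl8 and Elovl6 had fewer than 10 UMIs in at least 1 Ad-Lib library, and 6 calls remained without them. Angptl8, a feeding-induced inhibitor of lipoprotein lipase, had 1 to 3 UMIs in each Ad-Lib library and passed the low-count filter through TAN. Its level, a description, was 0.44 ± 0.23 CPM (Ad-Lib) and 10.6 ± 5.81 CPM (TAN; SD, n = 4 each). Me1, the cytosolic malic enzyme, went from 14.4 ± 2.19 to 73.6 ± 22.9 CPM, and Fasn, fatty acid synthase, from 42.0 ± 8.04 to 140 ± 44.4 CPM.

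The mean level that adipocyte RNA would give was higher in TAN libraries for each of these calls, by unlike amounts. In the Pecam1 gate that level was 40.7 ± 9.86 CPM (Ad-Lib) and 140.3 ± 38.9 CPM (TAN) of Fasn, 0.51 and 10.4 CPM of Angptl8, and 9.72 ± 0.88 and 59.2 ± 24.4 CPM of Me1. What was left of Fasn was -2.24 to 4.97 CPM in Ad-Lib and -12.1 to 9.43 CPM in TAN libraries, and what was left of Me1 was 2.14 to 7.88 and 2.90 to 25.0 CPM. The level that adipocyte RNA would give was 6.43 and 43.2 CPM of Acly, 18.1 and 35.4 of Dgat2, 0.45 and 8.84 of Elovl6, and 75.3 and 282 of Thrsp. Of Depp1 it was only 2.27 and 6.59 CPM, where 109 ± 33.1 and 186 ± 20.7 CPM were measured. For 8 of the 8 called genes the remainders of the groups overlapped. Those of Depp1 (107 ± 32.9 and 180 ± 18.0 CPM) met only at their ends, 152.96 CPM (highest Ad-Lib) and 152.94 CPM (lowest TAN). The estimate is approximate for the reason given for Ppp1r3b.

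Of the 19, 8 of 11 tested were called in the Adipoq/Car3-rich droplets, 4 of 10 in the C1qa gate (Dgat2, Fasn, Me1 and Thrsp) and 1 of 14 in the Pdgfra gate (Thrsp), all higher in TAN. The shares of all tested genes called higher were 1.73%, 0.182% and 0.255% in these lineages. Without genes of fewer than 10 UMIs in an Ad-Lib library (Acss2, Angptl8 and Elovl6 in the droplets, Dgat2 and Me1 in the C1qa gate), 5, 2 and 1 calls were left. DESeq2 called 2 of the 10 in the C1qa gate (Fasn and Thrsp), and 0.182% of all genes higher. Adipocyte RNA would give 11.2 ± 5.38 and 48.3 ± 21.1 CPM of Thrsp in the C1qa gate, where 8.88 ± 2.82 and 48.2 ± 16.0 CPM were measured, and 3.59 and 13.3 CPM in the Pdgfra gate, where 3.21 and 13.4 CPM were measured. In the C1qa gate the adipocyte gene Cidec was 7.71 ± 1.46 CPM (Ad-Lib) and 13.2 ± 4.63 CPM (TAN), without overlap. The remainders of the groups overlapped for 3 of the 4 calls in the C1qa gate (not for Me1, -0.89 to 0.58 and 4.62 to 7.23 CPM) and for Thrsp in the Pdgfra gate.

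The calls were also counted in cells without Adipoq or Car3 UMIs, which could still hold other adipocyte transcripts. In such Pecam1 cells, 2 of 7 tested were called: Fasn (log2 change 1.63, adjusted p = 0.0105) and Me1 (1.77, adjusted p = 0.0281). Of all genes tested in those cells, 0.0743% were called higher. In such C1qa cells 2 of 5 were called (Me1 and Thrsp, against 0.133% of all genes), and in such Pdgfra cells 1 of 14 (Thrsp, against 0.217%). Me1 had only 2 to 9 UMIs in each Ad-Lib library of the whole C1qa gate, against 17 to 43 in TAN libraries. Its call in these C1qa cells therefore rests on TAN counts and is a description.

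**Figure D5:**
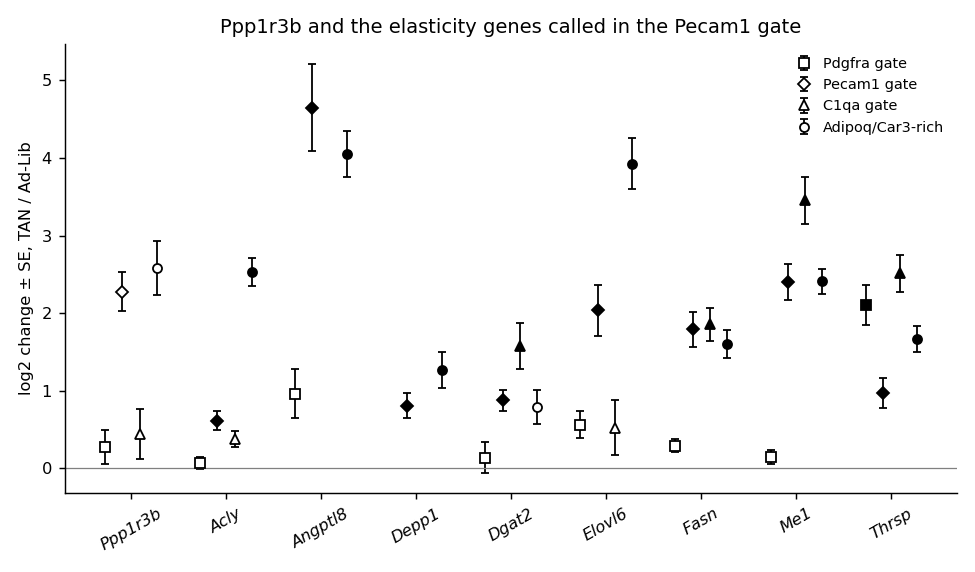
Fitted log2 change (TAN over Ad-Lib) ± SE of Ppp1r3b and of the 8 other elasticity genes called in the Pecam1 gate, by lineage; filled symbols are called changes, and a missing symbol did not pass the filter on low counts. Ppp1r3b is open in the Pecam1 gate and in the Adipoq/Car3-rich droplets because it is a description there. Dgat2, Fasn, Me1 and Thrsp are also called in the C1qa gate, in which Ppp1r3b (0.44) is not.

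The genes whose level was most like that of Ppp1r3b over the 32 sums (8 libraries in 4 lineages) were Tkt, Acly, Slc25a1, Agpat2 and Eno1, with Pearson r of 0.96, 0.93, 0.93, 0.93 and 0.91 on log2(CPM + 1), among 10199 genes of at least 10 CPM on average in 1 lineage. The 32 points share libraries and depth within a lineage, so r is a description. Eno1 has a near-identical copy in the mouse genome, and its count is uncertain. Transketolase (Tkt), an enzyme of the pentose phosphate pathway, averaged 299.6 (Ad-Lib) and 1047 CPM (TAN) in the Adipoq/Car3-rich droplets, 61.5 and 116 CPM in the Pecam1 gate (of which adipocyte RNA would give 16.5 and 66.2 CPM), and 66.2 and 77.7 CPM in the Pdgfra gate. Of the other members, Gbe1 was the most like Ppp1r3b (r = 0.85, rank 57), followed by Gyg (0.73) and Gys1 (0.72), and Ugp2 was the least alike (0.24).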

How the data were processed

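Single-cell RNA counts of inguinal SVF were measured in 4 Ad-Lib and 4 TAN libraries. The authors deposited raw UMI counts per gene and droplet, mapped to mm10 (GRCm38) with Cell Ranger; its version is 3.0.2 in the submitters' notes and 6.0.1 in the file headers. Counts were exonic per the study's methods. Droplets with 700 to 30000 UMIs, 200 to 8000 genes and at most 10% mitochondrial UMIs were kept. The Pdgfra and Pecam1 gates needed 1 UMI and the C1qa gate 2. Cells that reached the minimum of another of these gates, held a Cd79a, Cd3d or Cd3e UMI or were Adipoq/Car3-rich were left out. A single C1qa UMI was thus allowed in the Pdgfra and Pecam1 gates, and mural and Schwann markers were not excluded. These exclusions stood in for a doublet caller. At the minimum lay 16.6% of Pdgfra, 22.0% of Pecam1 and 3.63% of C1qa cells, and 37.0% of Adipoq/Car3-rich droplets had a share under 1%. Counts were summed per library and gate and tested with edgeR 4.0.16 (quasi-likelihood, filterByExpr, TMM); DESeq2 1.42.0 was an alternative. On simulated counts, 100% of 4-fold rises were recovered in the Adipoq/Car3-rich droplets, 76% of 2-fold rises there and 94% in the Pecam1 gate. Falls were recovered less often (80% of 4-fold and 70% of 2-fold falls in the droplets, 98% and 84% in the Pecam1 gate). Each share is of 50 changed genes, among 5237 genes in the droplets and 11533 in the gate. The simulation gave every gene the same dispersion, set in advance and not estimated from these data. Changed genes were drawn from all tested genes, so the shares do not give the recovery at the members' own counts and spread. Library contrasts of a single value used exact permutation over 70 assignments. Alternatives covered filters, gates, adipocyte thresholds, pseudocounts, thinning and leaving out each library. The members and gene lists were chosen with earlier results of these data known. Named were all 9 members, listed genes that were called, and the 5 genes most like Ppp1r3b; Pgm1, Phka2, Pygm and values in T and mural cells were singled out after their values were seen. Levels are CPM; intervals and limits cover counting error only.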

Additional observations from a re-analysis of the deposited data

Results flagged for a closer look

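Among 72 groups of 4 libraries (9 genes, 4 lineages, 2 feeding groups), 5 held a library apart from the others by Dixon's ratio at the 95% level; chance gives about 1 in 20. Ppp1r3b in the C1qa gate was 6.65 CPM in Ad-Lib 5, against 3.06 to 3.59 CPM in the other Ad-Lib libraries. Ppp1r3c in the Adipoq/Car3-rich droplets was 2.04 CPM in Ad-Lib 3 (1 UMI), against 10.8 to 11.6 CPM. Ppp1r3c in the C1qa gate was 0.19 CPM in Ad-Lib 1, also 1 UMI, and 0 in the other Ad-Lib libraries. Pygb in the Pdgfra gate was 34.4 CPM in TAN 8, against 29.9 to 30.3 CPM, and Ugp2 in the Pecam1 gate was 36.8 CPM in TAN 8, against 42.2 to 43.2 CPM.

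The difference of Ppp1r3b between the feeding groups was larger in the Adipoq/Car3-rich droplets than in the Pdgfra gate by 2.56 and than in the C1qa gate by 2.38 on the log2(CPM + 1) scale. The gene had been chosen for this contrast in these libraries, so both are given as values without a test.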

How the results depend on the processing

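No paired analysis was possible because the Ad-Lib libraries are numbered 1, 3, 5 and 7 and the TAN libraries 2, 4, 6 and 8, so no number is shared. Ppp1r3b in the Adipoq/Car3-rich droplets kept its direction under each alternative that could give a value, with log2 changes of 2.30 to 3.28 when a library was left out. Over all members' changes, 560 alternatives kept the side of the threshold and the direction, 31 reversed, 3 moved and 1 became a call; for each one named here the cause was not tested, except that dropping the filter tests more genes and dropping cells or libraries leaves fewer counts.

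The number of genes called changed most. In the Pdgfra gate (91 genes) it was 158 with no minimum change, 173 with no filter on low counts, 147 with DESeq2, 49 with no exclusion of other lineages, 173 without cells holding adipocyte UMIs and no filter, and 21 (without TAN 2) to 131 with a library left out (30 without TAN 4, 49 without TAN 8, 59 without Ad-Lib 7). In the Pecam1 gate (154) it was 291 with no minimum change, 29 with no exclusion, 14 without adipocyte UMIs, 69 without them and no filter, and 90 (without Ad-Lib 7) to 176 with a library left out. In the C1qa gate (43) it was 75 with no minimum change, 208 with no filter, 21 with no exclusion, 164 without adipocyte UMIs and no filter, and 16 (without TAN 2) to 56 with a library left out (20 without Ad-Lib 1, 19 without Ad-Lib 7, 27 without TAN 4). In the Adipoq/Car3-rich droplets (168) it was 306 with no filter, 111 at a threshold of 0.25%, 45 by Adipoq alone, and 98 (without TAN 2) to 171 with a library left out. With no exclusion, 1 elasticity gene (Me1) was called in the Pecam1 gate in place of 8.

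The log2 change of Ppp1r3b in the Pecam1 gate (2.27) was 2.61 with stricter gates, 2.54 with Adipoq alone, 1.00 without adipocyte UMIs and no filter, and 2.12 to 2.40 with a library left out. Its difference in CPM there (6.67) was 2.25 in cells with no Adipoq or Car3 UMI and 8.50 in the others; in the Adipoq/Car3-rich droplets (66.5 CPM) it was 90.4 in droplets without the gate markers of other lineages. The lineage differences of Ppp1r3b were 2.31 to 2.91 against the Pdgfra gate and 2.07 to 2.63 against the C1qa gate with a library left out (2.46 and 2.25 without TAN 2).

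Reversed log2 changes were small in most cases. In the Pecam1 gate Ppp1r3c was -0.0025 at an upper limit of 20000 UMIs, -0.13 with no exclusion, -0.045 at a threshold of 0.25% and -1.04 without adipocyte UMIs and no filter. Without adipocyte UMIs, without and with the filter, Gyg was -0.034 and -0.032, Gbe1 -0.14 and -0.13, and Ugp2 0.043 and 0.045. In the C1qa gate Pygl was -0.055 with stricter gates, and without adipocyte UMIs and no filter Ppp1r3b was -0.027, Pygl -0.45 and Pygb -0.029 (-0.015 with the filter). Gys1 in the Adipoq/Car3-rich droplets was 0.10 at a mitochondrial limit of 20%. With a library left out, log2 changes ran in the Pdgfra gate from -0.39 to 0.010 for Ppp1r3d and from -0.072 to 0.049 for Pygb. In the Pecam1 gate they ran from -0.17 to 0.28 for Ppp1r3c, -0.034 to 0.11 for Gbe1 and -0.087 to 0.017 for Ugp2. In the C1qa gate they ran from -0.22 to 0.10 for Gys1 and -0.11 to 0.26 for Pygl, and in the Adipoq/Car3-rich droplets from -0.37 to 0.10 for Gys1 and -0.0099 to 0.33 for Ugp2.

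Ppp1r3b, Ppp1r3c, Gys1 and Pygl could not be tested in Pecam1 cells without adipocyte UMIs, nor Ppp1r3b with Adipoq alone in adipocyte droplets, because they failed the filter. The fits without adipocyte UMIs and without the filter, the Pecam1 levels with and without adipocyte UMIs, and the droplets without those markers were added after seeing the data. Low counts limit the precision of Ppp1r3b, with 22 Ad-Lib UMIs in the Adipoq/Car3-rich droplets and 34 in the Pecam1 gate.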
